A study of Homo sapiens with 10 samples.

Results

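The genes described here act in mitosis and in the spindle, the microtubule machine that separates chromosomes when a cell divides. The 45 members were listed by gene name, and 44 of them were measured, through 55 probe sets, among 8904 genes with 1 symbol. The only probe set for CENPA, the histone variant of centromeres, also carries another symbol, so CENPA was not analysed here. A member with several probe sets was followed through the one with the highest mean signal. The members were named by their roles and not by the values below, but they were chosen with earlier results of these data known.

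Total RNA of T47D human breast cancer cells was hybridised to Affymetrix U133 Plus 2 arrays, 10 in all, with 5 groups of 2. PR-A K388R cells carry the A isoform of the progesterone receptor (PR) with the lysine that accepts SUMO, a small protein tag, replaced by arginine. WT PR-A cells carry the normal A isoform. Each of these lines received R5020, a synthetic progestin, at 10 nM for 24 h, or its ethanol vehicle. The 5th group was the PR-negative T47D-Y line, from which both others were derived by stable transfection, in vehicle. All of these groups therefore share the T47D-Y background. Each receptor form was represented by 1 line, so receptor form and cell line cannot be told apart. Whether a line was 1 clone or a pool is not given in the sources used here, and PGR, the gene of the receptor, was not analysed here. Sources differ on the medium (DMEM and charcoal-stripped serum in the labels, MEM and FBS in the methods) and on the RNA kit (PicoPure or RNAeasy). Nothing states that replicates 1 and 2 came from separate cultures, so their spread, which sets the p-values, may be technical.

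The labelled cell type was checked against marker genes. All 9 measured luminal breast epithelium markers lay above the array median, with array means of 9.90 to 10.8 on the log2 scale (KRT18 14.0, EPCAM 11.5). The lists of other cell types were lower: 2 of 4 basal, 4 of 8 fibroblast and 3 of 6 leukocyte markers lay above the median. Their array means were 5.16 to 5.73, 4.77 to 5.27 and 4.13 to 4.37. By their means over all arrays, within the fibroblast list COL1A1 (8.11) and VIM (7.44) lay above the upper quartiles of the arrays, 6.93 to 7.07, whereas LUM (2.48) lay under the lower quartiles, 3.28 to 3.39, and COL3A1 (3.70) just above them. Within the leukocyte list CD3E (5.43), CD79A (5.30) and CD2 (4.64) lay above the median over all values, and PTPRC (2.66) and LYZ (3.05) under the lower quartiles. The part of other cell types in the results was not tested.

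In mitosis the kinase CDK1, bound to a cyclin, drives chromosome condensation and spindle assembly. Kinetochores then attach each chromosome to spindle microtubules, and the spindle checkpoint holds the cell until all are attached. The anaphase-promoting complex with CDC20 then marks securin and cyclin B for destruction, separase cuts the rings that hold sister chromatids, and the cell divides in cytokinesis. Most of these genes are transcribed mainly late in the cell cycle, so their summed RNA in a culture is widely read as a sign of dividing cells. In breast epithelium, progestins are known both to start and to halt division, depending on the setting and the time of exposure.

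Genes transcribed late in the cell cycle are known to carry a cell cycle genes homology region (CHR), with the letters TTTGAA, and CCAAT boxes. Promoters of 37 of the 44 measured members were found in RefSeq (GRCh38.p14), 54 promoters in all. TTK, KNTC1, AURKA, PKMYT1, UBE2C, BIRC5 and FOXM1 were not among them. In the 250 bases before the start, on either strand, TTTGAA was present in 22 of the 54 promoters (40.7%, 20 genes), against 13.3% of all 35116 promoters and 11.1% of the 9870 promoters of measured genes. CCAAT was present in 33 (61.1%, 28 genes), against 32% of all promoters and 32.7% of those of measured genes. The CHR variant TTCGAA was present in 3 (5.56%), against 1.19% of all promoters and 1.26% of those of measured genes. TGTTCT, the core hexamer of progesterone response elements, was present in 4 (7.41%), against 12.4% and 10.1%. Both CHR forms were searched and counted separately, and a match is a description of these letters only. The 150 bases before the start are shown for the 6 members that passed the thresholds below in at least 1 comparison and had a promoter, since the calls turn on these genes. Capitals mark TTTGAA and CCAAT on either strand.
NDC80 promoter, chr18:2571407-2571556 (+ strand): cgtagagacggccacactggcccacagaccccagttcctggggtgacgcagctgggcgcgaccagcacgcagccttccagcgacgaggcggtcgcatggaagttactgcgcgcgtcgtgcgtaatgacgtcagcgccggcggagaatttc
PLK1 promoter, chr16:23678739-23678888 (+ strand): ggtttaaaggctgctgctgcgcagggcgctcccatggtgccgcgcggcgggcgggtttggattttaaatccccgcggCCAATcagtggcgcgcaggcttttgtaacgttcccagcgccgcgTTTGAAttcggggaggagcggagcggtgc
MELK promoter, chr9:36572745-36572894 (+ strand): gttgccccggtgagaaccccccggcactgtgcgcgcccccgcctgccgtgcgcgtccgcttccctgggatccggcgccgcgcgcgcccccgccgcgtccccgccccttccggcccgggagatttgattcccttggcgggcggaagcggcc
ESPL1 promoter, chr12:53268149-53268298 (+ strand): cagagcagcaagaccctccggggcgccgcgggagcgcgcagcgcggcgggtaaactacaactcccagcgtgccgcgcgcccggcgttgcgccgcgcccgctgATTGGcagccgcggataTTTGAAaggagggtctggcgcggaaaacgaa
DLGAP5 promoter, chr14:55191586-55191735 (- strand): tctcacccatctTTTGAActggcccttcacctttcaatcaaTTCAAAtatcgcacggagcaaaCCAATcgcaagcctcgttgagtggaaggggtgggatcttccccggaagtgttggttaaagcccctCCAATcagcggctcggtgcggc
ANLN promoter, chr7:36389712-36389861 (+ strand): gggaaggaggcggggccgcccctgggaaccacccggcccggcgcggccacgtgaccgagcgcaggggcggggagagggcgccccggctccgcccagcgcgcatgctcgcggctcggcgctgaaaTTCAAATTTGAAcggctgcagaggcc
PLK1 had its TTTGAA 29 bases before the start and ESPL1 31 bases before it, each nearer to it than a CCAAT box (73 and 48 bases before the start). ANLN had TTTGAA on both strands side by side, 26 and 20 bases before the start, without a CCAAT box. DLGAP5 had it on both strands (138 and 109 bases before the start) with CCAAT boxes at 87 and 22 bases. The NDC80 and MELK windows held neither set of letters.

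All 44 members gave signals above the middle of each of the 10 arrays. Their mean signals over the arrays were 6.88 to 11.6 (log2), and on every array all 44 lay above the array median, which was 4.59 to 4.69. Between 42 and 44 members lay above the upper quartile of the array and 0 below its lower quartile. The mean over the members was 9.70 and 9.73 on the R5020 arrays of PR-A K388R cells, against 9.28 and 9.34 on their vehicle arrays. It was 9.32 and 9.37 on the R5020 arrays of WT PR-A cells, against 9.53 and 9.44 on their vehicle arrays, and 9.56 and 9.52 in T47D-Y. Within both PR-A lines the treated and vehicle arrays did not overlap in this mean, and they stood in opposite order. Of the 44 members, 29 had their highest group mean in R5020-treated PR-A K388R cells, 11 in T47D-Y, 1 in WT PR-A cells with R5020 and 3 in that line with vehicle. The lowest mean was in vehicle-treated PR-A K388R cells for 23 members and in R5020-treated WT PR-A cells for 14. In these bulk values fewer dividing cells and less RNA per cell cannot be told apart.

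**Figure D1:**
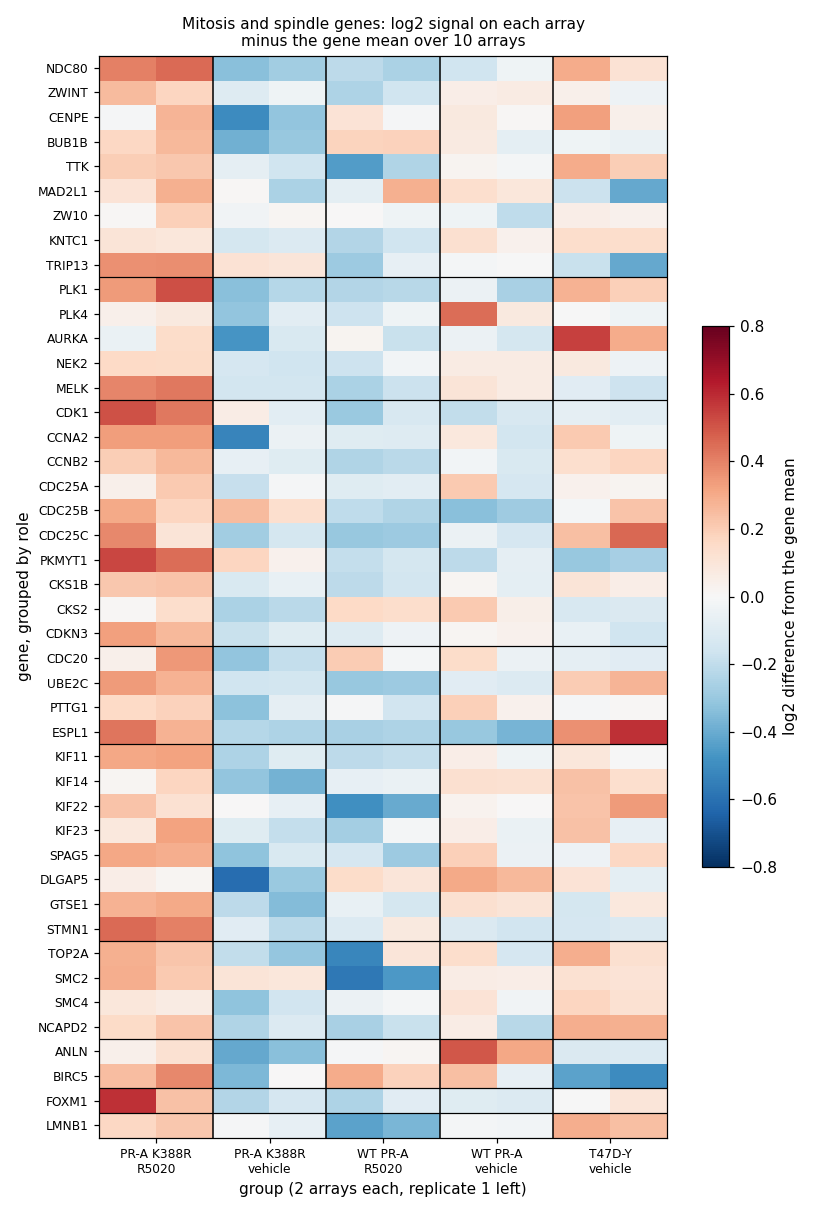
Each row is 1 of the 44 measured genes, grouped by role, and each column 1 array, with colour for the log2 signal minus the gene's mean over the 10 arrays. The R5020 arrays of PR-A K388R cells are the highest group for 29 genes and the vehicle arrays of the same line the lowest for 23.

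With R5020, all 44 measured members had a higher mean in PR-A K388R cells than with vehicle, 3 of them past both thresholds. Their log2 differences were above 0 (0.04 to 0.74), with a median of 0.41, against 0.01 over all genes and 0.03 over the 2818 genes with mean signals in the members' range. Of all genes, 51.7% were above 0. A member was called when its adjusted p from limma was under 0.05 and its fold at least 1.5, and 3 members were called higher (1.25% of all genes were) and 0 lower (0.416% of all genes). At an unadjusted p under 0.05, 33 members were higher (7.41% of all genes) and 0 lower (4.92%). Both treated arrays lay above both vehicle arrays for 42 members (24.6% of all genes) and below them for 0 (19.7%). For the genes in the members' range these shares were 34% and 21.5%. The 2 members whose arrays overlapped were ZW10, which recruits dynein to kinetochores, and CDC25B, a phosphatase that activates CDK1. This count was 43 above 0 with quantile normalization, 44 with arrays centred on their medians and 43 or 44 with 1 array of this line left out. Taking the probe set with the largest variance can change the differences of members with several probe sets. Its count above 0 is not given here. The remaining settings of the analysis leave these log2 differences as they are. No list test was made.

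NDC80, a kinetochore protein that grips microtubules, had 9.44 and 9.49 on the R5020 arrays of PR-A K388R cells, against 8.71 and 8.76 on their vehicle arrays. In WT PR-A cells it had 8.83 and 8.79 with R5020, against 8.88 and 9.002 with vehicle, and T47D-Y cells had 9.34 and 9.15. The treated PR-A K388R arrays were thus the highest of the 10. NDC80 rose 1.67-fold in this line (log2 0.74, standard error 0.12, adjusted p = 0.0149).

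PLK1, a kinase needed for spindle assembly and mitotic exit, had 9.10 and 9.28 on the R5020 arrays of PR-A K388R cells, against 8.43 and 8.54 on their vehicle arrays. The WT PR-A line had 8.53 and 8.54 with R5020, against 8.72 and 8.51 with vehicle, and T47D-Y cells had 9.04 and 8.95. Again the treated PR-A K388R arrays were the highest of the 10, with those of T47D-Y next. PLK1 rose 1.64-fold in this line (log2 0.71, standard error 0.12, adjusted p = 0.0253).

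ESPL1, which encodes separase, had 10.13 and 9.98 on the R5020 arrays of PR-A K388R cells, against 9.47 and 9.45 on their vehicle arrays. WT PR-A cells had 9.44 and 9.45 with R5020, against 9.39 and 9.32 with vehicle. T47D-Y cells had 10.06 and 10.28, so the treated PR-A K388R arrays overlapped those of the PR-negative line. ESPL1 rose 1.51-fold in PR-A K388R cells (log2 0.59, standard error 0.12, adjusted p = 0.0458). Without any 1 of the 4 PR-A K388R arrays NDC80, PLK1 and ESPL1 all missed the threshold (adjusted p 0.0905 to 0.281), and ESPL1 also missed it without any 1 of the other arrays (0.0525 to 0.0845).

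BUB1B, a checkpoint kinase, MELK, a kinase abundant in dividing cells, and STMN1, which destabilises microtubules, passed the adjusted p but not the fold. Their log2 differences in PR-A K388R cells were 0.56 (adjusted p = 0.0438), 0.55 (0.0366) and 0.58 (0.0434). MELK had 10.475 and 10.504 on the R5020 arrays of this line, against 9.94 and 9.94 on its vehicle arrays. FOXM1, a transcription factor of late cell cycle genes, differed by 0.59 and CCNA2, a cyclin that binds CDK1, by 0.62, neither past the adjusted p. CDK1 differed by 0.48 through its brighter probe set and was not called, while its second probe set was called higher (0.79, adjusted p = 0.00838). BIRC5, the survivin subunit of the chromosomal passenger complex, was likewise not called through its brightest probe set (0.50) and called higher through another (0.73, adjusted p = 0.0276). The second probe set of STMN1, with a mean signal of 3.53, was the only member probe set below 0 (-0.07).

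The R5020 differences in PR-A K388R cells were spread over all roles. The 9 kinetochore and checkpoint genes had a median of 0.31 (0.11 to 0.74), with CENPE, a kinetochore motor, at 0.54 and ZWINT, TTK, MAD2L1, KNTC1 and TRIP13 at 0.22 to 0.32. Among the 5 mitotic kinases the median was 0.34, with AURKA, which acts at spindle poles, at 0.34, NEK2 at 0.30 and PLK4, which starts centriole duplication, at 0.26. The 10 genes of CDK1, its cyclins and regulators had a median of 0.35, with CCNB2 at 0.31, the phosphatases CDC25A and CDC25C at 0.22 and 0.45 and the inhibitory kinase PKMYT1 at 0.39. In this group the CDK-binding proteins CKS1B and CKS2 both stood at 0.31, and CDKN3, a phosphatase that acts on CDKs, at 0.43. The 4 genes of anaphase onset had a median of 0.45. CDC20, which activates the anaphase-promoting complex, stood at 0.44, its ubiquitin-conjugating enzyme UBE2C at 0.46, and PTTG1, which is securin, at 0.38. The 8 spindle motors and microtubule regulators had the highest median of the groups with over 2 genes, 0.49. KIF11, the motor that pushes spindle poles apart, stood at 0.49, KIF14 at 0.44, KIF23, a motor of cytokinesis, at 0.35 and KIF22 at 0.21. SPAG5, DLGAP5 and GTSE1, which bind microtubules, stood at 0.52, 0.49 and 0.57. For chromosome structure, TOP2A, which untangles DNA, stood at 0.50, and the condensin subunits SMC4, NCAPD2 and SMC2 at 0.31, 0.36 and 0.15. ANLN, the contractile ring protein anillin, stood at 0.45 and LMNB1, of the nuclear lamina, at 0.23. Differences between these roles were not tested.

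**Figure D2:**
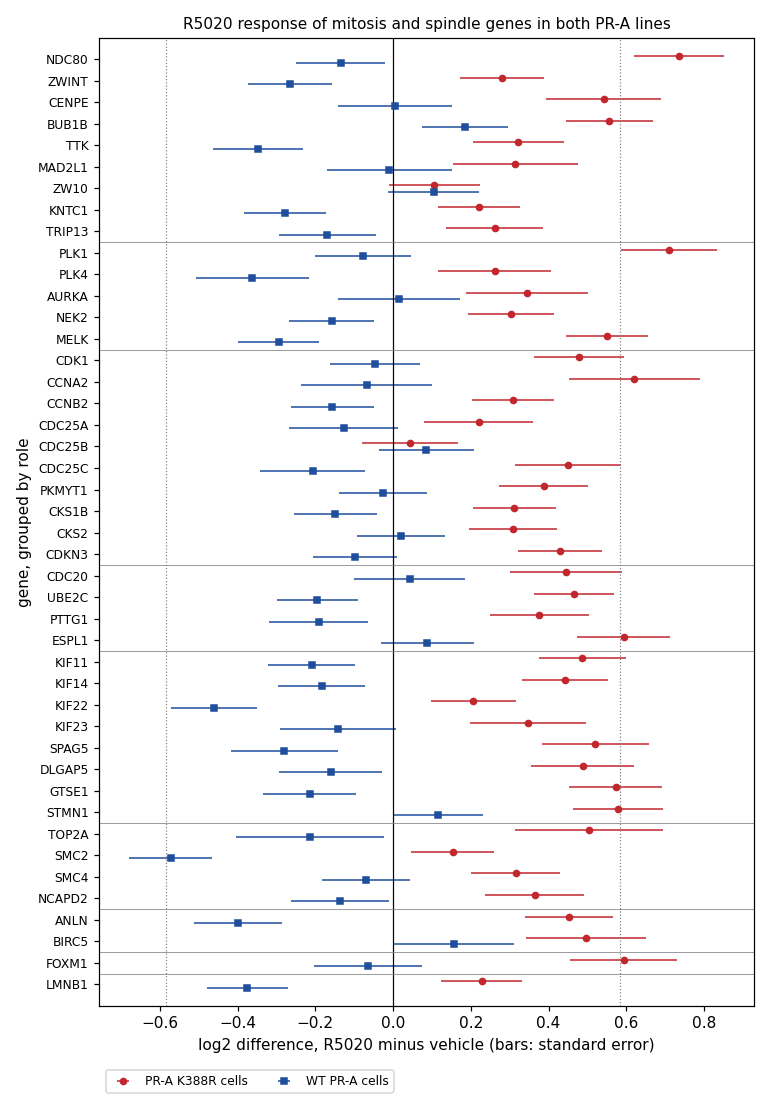
The R5020 response (log2 difference, R5020 minus vehicle, with standard errors) of each gene is shown in PR-A K388R cells (circles) and WT PR-A cells (squares), with dotted lines at a fold of 1.5. All 44 circles lie above 0 (0.04 to 0.74) and 34 of 44 squares lie below it (-0.57 to 0.18).

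In WT PR-A cells 34 of the 44 members had a lower mean with R5020 than with vehicle, and none met both thresholds. The median log2 difference was -0.15, against -0.02 over all genes and -0.03 over genes at the members' levels. Of all genes, 54% were below 0. Members below 0 numbered 36 with quantile normalization, 34 with centred arrays and 28 to 39 with 1 array of this line left out. The probe set with the largest variance can change the differences of members with several probe sets, and its count is not given here. The remaining settings leave these log2 differences as they are. The median was -0.095 without replicate 1 of the vehicle arrays of this line. Limma called 0 members higher (4.4% of all genes were) and 0 lower (3.47%). At an unadjusted p under 0.05, 0 were higher (10.3% of all genes) and 9 lower (11.3%). Both treated arrays lay above both vehicle arrays for 5 members (24.6% of all genes), which were BUB1B, ZW10, CDC25B, ESPL1 and STMN1, and below them for 23 (28.9%). For genes at the members' levels these shares were 33.2% and 38.8%.

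SMC2, a core subunit of condensin, had 9.08 and 9.20 on the R5020 arrays of WT PR-A cells, against 9.72 and 9.71 on their vehicle arrays. The other 6 arrays held 9.74 to 9.95, so the treated WT PR-A arrays were the lowest of the 10. Its log2 difference of -0.57 (standard error 0.11, adjusted p = 0.00809) passed the adjusted p at a fold of 1.49, just under the threshold. KIF22, a kinesin that binds chromosome arms, had 8.26 and 8.35 with R5020, against 8.78 and 8.75 with vehicle. Its log2 difference was -0.46 (standard error 0.11, adjusted p = 0.0296), a fold of 1.38. Without replicate 2 of the R5020 arrays of WT PR-A cells the median over the members was -0.17. ANLN (-0.40, adjusted p = 0.0632) and LMNB1 (-0.38) came next, and BUB1B (0.18) was the farthest above 0.

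The response of PR-A K388R cells exceeded that of WT PR-A cells for 43 of 44 members, the exception being CDC25B (-0.04). The median difference of the responses was 0.53 (log2), against 0.02 over all genes, of which 54.2% were above 0, and 0.06 over genes at the members' levels. This comparison uses the arrays of both responses above and adds no independent data. Of the members, 3 were called higher (0.719% of all genes were) and 0 lower (1.16%). At an unadjusted p under 0.05, 36 members were higher (7.77% of all genes) and 0 lower (5.96%). Without the replicate block, which counts 1 more degree of freedom than the values hold, 13 members were called higher (1.98% of all genes).

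NDC80 differed by 0.87 between the responses (standard error 0.16, adjusted p = 0.0363), as its signal rose in PR-A K388R cells and stood 0.13 below vehicle in WT PR-A cells. MELK differed by 0.84 (standard error 0.15, adjusted p = 0.0277). The WT PR-A line had 9.83 and 9.91 with R5020, against 10.19 and 10.15 with vehicle, the opposite order to PR-A K388R cells, and T47D-Y cells had 9.99 and 9.92. ANLN differed by 0.85 (standard error 0.16, adjusted p = 0.0372). It had 10.38 and 10.46 on the R5020 arrays of PR-A K388R cells, against 9.93 and 10.01 on their vehicle arrays. With WT PR-A, ANLN had 10.33 and 10.35 with R5020, against 10.84 and 10.65 with vehicle. The treated arrays of both lines thus lay close together and the vehicle arrays far apart. SPAG5 (0.80), PLK1 (0.79, adjusted p = 0.0643), GTSE1 (0.79) and SMC2 (0.73, adjusted p = 0.0516) came next and missed the adjusted p. The second probe set of CDK1 was called higher (0.83, adjusted p = 0.0336), its brighter one not (0.53). When any 1 array was left out, 0 or 1 members were called, and ANLN and MELK missed the threshold each time (adjusted p 0.0510 to 0.162).

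**Figure D3:**
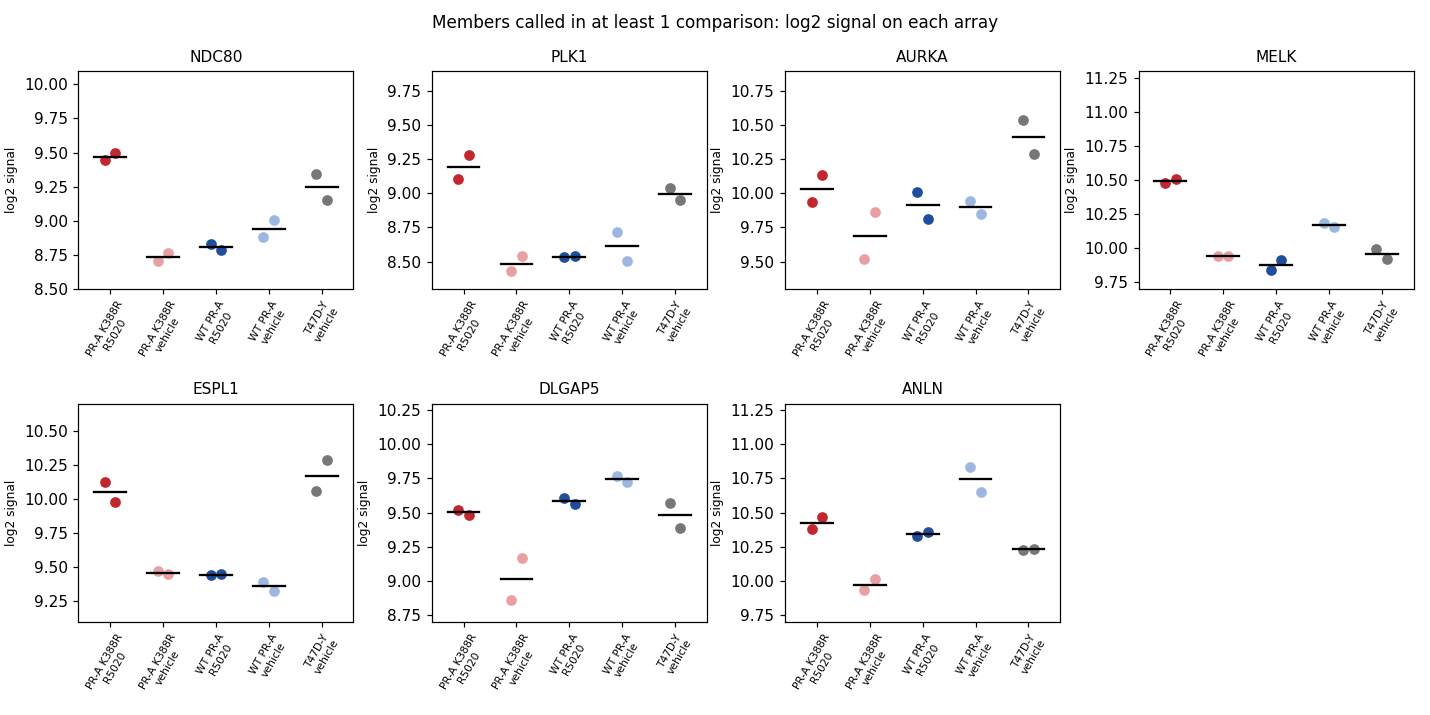
Points are the log2 signals of single arrays (2 per group) and bars the group means, for the 7 genes called in at least 1 comparison; each vertical axis spans 1.6 log2 units. NDC80, PLK1 and MELK are highest on the R5020 arrays of PR-A K388R cells, ANLN in WT PR-A cells with vehicle, and ESPL1 and AURKA have high T47D-Y arrays.

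Without progestin, most members had a lower mean in PR-A K388R cells than in T47D-Y cells. The median was -0.23 (log2), against 0.05 over all genes and -0.05 over genes at the members' levels. Below 0 were 38 of 44 members, against 40.9% of all genes and 59.5% of genes at the members' levels. Members called lower numbered 2 (2.48% of all genes were) and higher 0 (1.35%). At an unadjusted p under 0.05, 18 members were lower (10.3% of all genes) and 2 higher (11.7%). Both PR-A K388R arrays lay below both T47D-Y arrays for 34 members (23.4% of all genes) and above them for 3 (34.6%). For genes at the members' levels these shares were 40.3% and 25.7%. AURKA had 9.52 and 9.86 on the vehicle arrays of PR-A K388R cells, against 10.54 and 10.29 in T47D-Y, and was 1.65-fold lower (log2 -0.72, standard error 0.16, adjusted p = 0.0323). Its values with R5020 were 9.93 and 10.13 in this line, and in WT PR-A cells they were 10.01 and 9.81, against 9.94 and 9.85 with vehicle, so T47D-Y had the highest arrays. AURKA missed the threshold without replicate 1 of the PR-A K388R vehicle arrays, without either T47D-Y array and without either WT PR-A vehicle array (adjusted p 0.0523 to 0.269). ESPL1, with the values given above, was 1.64-fold lower in PR-A K388R cells (log2 -0.71, standard error 0.12, adjusted p = 0.0108), a call lost without either PR-A K388R vehicle array or replicate 2 of T47D-Y (adjusted p 0.0567 to 0.105). CENPE (-0.60), CDC25C (-0.56) and KIF14 (-0.53) followed, while TRIP13, an ATPase of the spindle checkpoint, stood at 0.40 and PKMYT1 at 0.39. The upper quartile of the PR-A K388R arrays was 6.93 to 6.99, against 7.02 to 7.07 on the others. With arrays centred on their medians 5 members were called lower. Centring also moved the median over all genes from 0.05 to -0.02. The share of all genes called lower with centring is not given here, so the 5 are a description only.

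In vehicle, 26 of the 44 members had a lower mean in WT PR-A cells than in T47D-Y and 18 a higher one. The median was -0.06 (log2), against 0.02 over all genes, and it rested on single arrays. It was -0.0084 without replicate 1 of T47D-Y, with 22 members above 0 and 22 below, and -0.0093 without replicate 2 of the WT PR-A vehicle arrays. Without replicate 1 of the WT PR-A vehicle arrays it was -0.13. Limma called 1 member lower (4.03% of all genes were) and 0 higher (4.48%). At an unadjusted p under 0.05, 10 were lower (11.4% of all genes) and 4 higher (11.8%). The WT PR-A arrays lay above both T47D-Y arrays for 14 members (30.5% of all genes) and below them for 20 (26.2%). For genes at the members' levels these shares were 37% and 37.3%. ESPL1 fell 1.76-fold below T47D-Y (log2 -0.81, standard error 0.12, adjusted p = 0.00209) and was called with each array left out (adjusted p 0.00338 to 0.0311). BIRC5 had 9.97 and 9.66 in WT PR-A cells, against 9.30 and 9.22 in T47D-Y. Its log2 difference of 0.55 missed the threshold (adjusted p = 0.0537), and its second probe set was called higher (0.64, adjusted p = 0.0121). ANLN, at 10.23 on both T47D-Y arrays, differed by 0.51 (adjusted p = 0.0183) at a fold of 1.43.

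**Figure D4:**
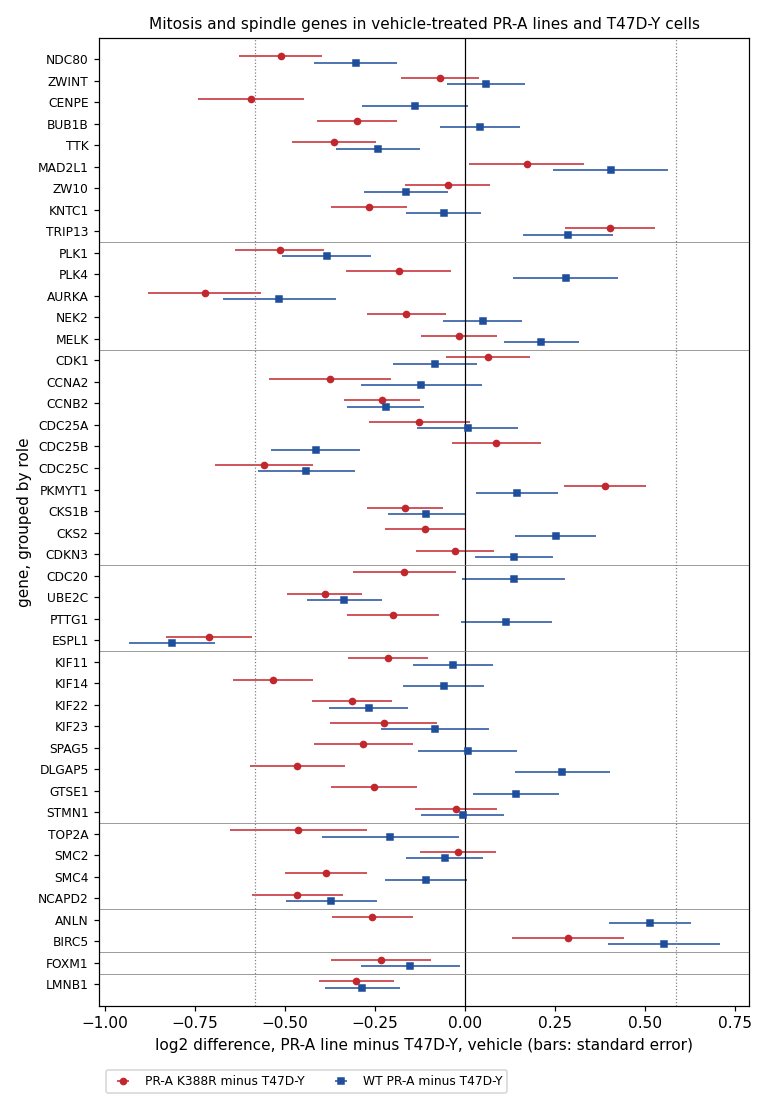
The log2 difference from T47D-Y in vehicle, with standard errors, is shown for PR-A K388R cells (circles) and WT PR-A cells (squares), with dotted lines at a fold of 1.5. Of 44 circles 38 lie below 0 (-0.72 to 0.40), against 26 of 44 squares (-0.81 to 0.55), and both sets share the T47D-Y arrays.

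Between both PR-A lines in vehicle, 37 of 44 members were lower in PR-A K388R cells. Of all genes 42.1% were, and of genes at the members' levels 57.8%. The median over the members was -0.17 (log2), against 0.05 over all genes and -0.06 over genes at the members' levels. Members called lower numbered 2 (5.63% of all genes were) and higher 0 (3.49%). At an unadjusted p under 0.05, 10 members were lower (13.8% of all genes) and 1 higher (13.5%). The PR-A K388R arrays lay below both WT PR-A arrays for 26 members (26% of all genes) and above them for 7 (35.1%). For genes at the members' levels these shares were 43.5% and 30.2%. ANLN, with the values given above, was 1.71-fold lower in PR-A K388R cells (log2 -0.77, standard error 0.11, adjusted p = 0.00222) and was called with each array left out (adjusted p 0.00350 to 0.0366). DLGAP5, which stabilises spindle fibres, had 8.86 and 9.17 in vehicle-treated PR-A K388R cells, against 9.77 and 9.73 in vehicle-treated WT PR-A cells. With R5020 it had 9.52 and 9.48 in PR-A K388R cells, and in WT PR-A cells 9.61 and 9.56, and T47D-Y cells had 9.57 and 9.38. The vehicle arrays of PR-A K388R cells were therefore the lowest of the 10. DLGAP5 was 1.67-fold lower (log2 -0.74, standard error 0.13, adjusted p = 0.0065), a call lost without replicate 1 of the vehicle arrays of either line (adjusted p 0.0584 and 0.0654). BIRC5's second probe set was called lower (-0.65, adjusted p = 0.0109), its brightest not (-0.27). CDC25B went the other way, with 10.45 and 10.33 in PR-A K388R cells, against 9.86 and 9.91 in WT PR-A cells (log2 0.50, adjusted p = 0.0287, fold under 1.5).

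The vehicle arrays of PR-A K388R cells enter the R5020 response of that line, the difference of the responses and both vehicle comparisons of that line. Low values on these arrays therefore count in all of them. Leaving out replicate 1 of these arrays moved the median against T47D-Y to -0.17 and that against WT PR-A cells to -0.0932. The median against WT PR-A cells was -0.10 without replicate 1 of the WT PR-A vehicle arrays and -0.0994 with quantile normalization, each with 12 members above 0 in place of 7. Of the 44 members, 7 were called in at least 1 of the 6 comparisons and 37 in none. The share of all genes called in at least 1 comparison is not given here, so this count is a description only. The probe sets of a member disagreed in sign for 2 of 9 members with several in the WT PR-A response, 1 in the PR-A K388R response, and 3 or 4 in the vehicle comparisons.

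A wider list of 163 other mitosis genes, drawn up with results of these data known, had 46 measured, against 44 of the 45 members. Most of this list is therefore not covered here. In PR-A K388R cells 2 of them were called higher with R5020 (4.35%, against 1.25% of all genes) and 0 lower (0.416% of all genes), with a median of 0.16 (log2). UBE2S, which extends ubiquitin chains for the anaphase-promoting complex, had 10.66 and 10.88 with R5020, against 9.80 and 9.92 with vehicle (log2 0.91, adjusted p = 0.00897). TMPO, of the inner nuclear membrane, had 9.98 and 10.12, against 9.39 and 9.40 (0.65, adjusted p = 0.0262). In WT PR-A cells 1 was called higher (2.17%, against 4.4% of all genes) and 2 lower (4.35%, against 3.47%), with a median of -0.07. PDS5B, a cohesin regulator, was higher (0.75), while TACC1, a centrosomal protein, and ENSA, an inhibitor of a phosphatase that opposes CDK1, were lower (-0.85 and -0.60). The difference of the responses was called higher for 1, TROAP, a spindle protein (0.81, adjusted p = 0.0402), which is 2.17%, against 0.719% of all genes, and lower for 0 (1.16% of all genes), with a median of 0.21. Against T47D-Y in vehicle, 1 of the 46, TACC1 (-0.66, adjusted p = 0.0337), was called lower in PR-A K388R cells (2.17%, against 2.48% of all genes) and 0 higher (1.35% of all genes), with a median of -0.14. In WT PR-A cells 3 were called higher (6.52%, against 4.48% of all genes) and 3 lower (6.52%, against 4.03%), with a median of -0.04. Those with the smallest adjusted p were UBE2S (1.08), higher, and PDS5B (-1.28), TACC1 (-1.0002) and PCNT, a protein of the centrosome (-0.80), all lower. Between both PR-A lines in vehicle 4 of the 46 were called lower in PR-A K388R cells (8.7%, against 5.63% of all genes) and 2 higher (4.35%, against 3.49%), with a median of -0.05. Those with the smallest adjusted p were TROAP (-0.71), TMPO (-0.72) and UBE2S (-0.78), all lower, and MAD1L1, a spindle checkpoint protein (0.64), higher. In all 6 comparisons the median of the 46 was smaller in size than that of the members. For the PR-A K388R response it was 0.16 against 0.41, and for the difference of the responses 0.21 against 0.53. With so few genes in each count these shares are given as a description.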

How the data were processed

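RNA of 5 groups of T47D cells was hybridised to 10 Affymetrix U133 Plus 2 arrays. The deposited values are log2 signals per probe set, which the authors had normalized with Partek Genomics Suite, and the normalization and background methods are not given in the sources used here. The table used holds 16376 probe sets, part of the array. One gene symbol belongs to 12547 of these (8904 genes), several symbols to 457, and 3372 are missing from the probe annotation. Array intensities carry no read depth, so the number of arrays limits the precision.

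Limma 3.58.1 in R 4.3.3 was run over the whole table with group means and the replicate number as a block, with Benjamini-Hochberg adjustment across every probe set. The study's thresholds, a fold of 1.5 or more and 0.05 for the adjusted p, defined a call. The replicate differences of the 5 groups sum to 0 for every probe set (largest absolute sum 0.0003), so the replicate number had been removed from the deposited values. The block therefore counts 4 residual degrees of freedom (prior 5.62), and leaves the log2 differences as they are. The fit without the block counts 5 (prior 4.35). For this reason the arrays cannot show whether replicate numbers pair them, and that check is void.

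Each gene was represented by the probe set with the highest mean. Members and lists were chosen with earlier results of these data known. Every member is named, and array values are given for members called in at least 1 of 6 comparisons and, where fewer than 2 were called, for the 2 with the largest differences. Of the other mitosis genes at most 4 per comparison are named, the called ones with the smallest adjusted p. No list was tested. The analysis was tested on simulated data. Alternatives were the fit without the block, quantile normalization, arrays centred on their medians, a trend with intensity, contrasts with unmoderated variances, a table without its 40% dimmest probe sets, fits on the compared arrays alone, other fold thresholds, the probe set with the largest variance, and leaving out each array, with the lone array left in a group taken to vary as the other groups do. Promoters came from RefSeq (GRCh38.p14). Figures were drawn with Python 3.11.15 and matplotlib 3.10.9.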

Additional observations from a re-analysis of the deposited data

Results flagged for a closer look

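The R5020 response differed between PR-A K388R and WT PR-A cells, by limma's test of the difference itself, for 3 mitosis and spindle genes. NDC80 differed by 0.87 (log2, PR-A K388R response minus WT PR-A response, adjusted p = 0.0363), MELK by 0.84 (adjusted p = 0.0277) and ANLN by 0.85 (adjusted p = 0.0372). In all 3 genes both R5020 arrays of PR-A K388R cells lay above their vehicle arrays and both R5020 arrays of WT PR-A cells lay below theirs. NDC80 missed the threshold without any 1 of the 8 arrays of the PR-A lines (adjusted p 0.0951 to 0.148), and MELK and ANLN without any 1 of the 10.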

How the results depend on the processing

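No call of a member changed direction under quantile normalization, centring, another probe set or the loss of an array of the compared groups. The other alternatives leave the log2 difference of a call as it is, so its direction could not change there. The 11 calls all remained without the replicate block, which gave 13 members called higher in place of 3 for the difference of the responses and changed no other count by over 1.5 times. An intensity trend also gave 13 there, leaving out the dimmest probe sets 6, and the compared arrays alone 1. Unmoderated contrasts gave 0 higher for the PR-A K388R response and the difference of the responses. They gave 0 lower against T47D-Y and 1 lower against WT PR-A for the vehicle-treated PR-A K388R line. A fold of at least 2 left 0 calls. With no fold threshold 2 members were lower in the WT PR-A response, 6 higher in the PR-A K388R response, 1 higher in WT PR-A against T47D-Y, 5 lower in PR-A K388R against T47D-Y and 1 higher against WT PR-A. Quantile normalization gave 1 lower in the WT PR-A response and 1 higher in PR-A K388R against WT PR-A, and medians of 0.35 for the PR-A K388R response and, for that line in vehicle, -0.18 against T47D-Y cells and -0.0994 against WT PR-A. Centring gave 5 lower and a median of -0.30 for that line against T47D-Y cells, where the compared arrays alone gave 1 lower. The probe set with the largest variance gave 5 higher in the PR-A K388R response and 1 higher in WT PR-A against T47D-Y. Apart from the fit without the block, the shares of all genes called under these alternatives are not given here. The counts are therefore a description, and causes were not tested.

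With each array left out, calls ranged from 0 to 2 (lower, WT PR-A response), 0 to 2 (higher, PR-A K388R response), 0 to 1 (higher, difference), 0 to 1 (higher, WT PR-A against T47D-Y), 0 to 3 (lower, PR-A K388R against T47D-Y) and 1 to 3 (lower, PR-A K388R against WT PR-A). Medians ranged from 0.35 to 0.44 for the PR-A K388R response, -0.28 to -0.17 for that line in vehicle against T47D-Y cells, and -0.245 to -0.0932 against WT PR-A. They ranged from -0.21 to -0.095 for the WT PR-A response and from -0.13 to -0.0084 for WT PR-A against T47D-Y. For PR-A K388R cells the lowest response median came without replicate 2 of their R5020 arrays, and their vehicle medians nearest 0 without replicate 1 of their vehicle arrays. The 2 arrays per group limit what these calls can carry. The shares of all genes called in these runs are not given here, so the counts are a description only.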
